A study of Oryza sativa Japonica Group with 17 samples.

Results

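The auxin response factor (ARF), Aux/IAA and GH3 genes of rice were followed in roots that lack cytosolic glutamine synthetase 1;1 or 1;2. Genes were taken from the array annotation by name alone. A gene entered if its symbol or a synonym was ARF, IAA or GH3 followed by a number, with or without Os before it, and each was represented by its probe set with the highest mean signal over all samples. This gave 52 genes out of the 17905 with a probe set of 1 gene: 17 ARF, 26 Aux/IAA and 9 GH3 genes. Another 8 matching genes, ARF5, ARF6, ARF8, ARF19, ARF21, ARF25, IAA11 and IAA29, had no probe set of 1 gene and were not analysed here. Of the 52 genes, 44 read above the array median on all 17 arrays and 6 below it on all 17, namely ARF13, IAA8, IAA14, GH3.1, GH3.9 and GH3.11. The annotation lists several family numbers for 8 genes, so ARF4 is also listed as ARF2, ARF23 as ARF1, ARF12 as ARF8, IAA13 as IAA1, ARF1 as ARF16, ARF18 as ARF10, IAA4 as IAA20 and IAA5 as IAA8. Locus identifiers stand where a gene is first described, and samples are named by the plant number in their label.

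The products of these families form the core of the transcriptional auxin response. ARF proteins bind the promoters of auxin-responsive genes. Aux/IAA proteins bind ARFs and repress them, and auxin brings about their degradation through the TIR1/AFB receptors. GH3 enzymes join auxin, or in some members jasmonate, to amino acids, and many Aux/IAA and GH3 genes are themselves induced by auxin. In roots this pathway is known for its part in elongation, gravitropism and the formation of lateral and crown roots.

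The samples were 17 root preparations of the rice cultivar Nipponbare (Oryza sativa Japonica Group), 1 array each, from plants grown in water culture for 18 days with 1 mM ammonium chloride as the sole nitrogen source. Cytosolic glutamine synthetase joins ammonium to glutamate, and the study compared roots lacking either of 2 of its isoforms with their controls. Homozygotes of NC2373 (n = 2) and ND8037 (n = 3), each 1 insertion line of OsGS1;1, carry the label gs1;1 and are called the mutants of their line here, and each has as control its null (n = 3 each), plants without the insertion that segregated from a heterozygote of the line. The homozygous gs1;2 mutant (n = 3) has no segregated null among the samples, and its control is the unmutated wild type (n = 3), so loss of OsGS1;2 and any other difference in genetic background cannot be told apart. Values are log2 signals made with RMA, a method that brings arrays to one distribution and gives each probe set 1 value from its probes. Differences are mutant minus control on that log2 scale, with the standard error (SE) and the Benjamini-Hochberg adjusted p over all 57194 probe sets tested, from limma. A gene is said to have risen or fallen where that adjusted p was under 0.05. Signals of different probe sets are not compared with each other.

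The disrupted genes followed the labels. OsGS1;1 fell by 3.37 in the NC2373 mutants (SE 0.236, adjusted p = 1.289e-05 in limma) and fell by 2.24 in the ND8037 mutants (SE 0.211, adjusted p = 0.0002719). OsGS1;2 fell by 5.43 in gs1;2 (SE 0.141, adjusted p = 8.075e-12). The 6 ND8037 arrays stood apart, with medians of 4.68 to 4.72 against 5.38 to 5.41 on the other 11 and a 3' minus 5' actin signal of 4.62 to 5.02 against 2.58 to 3.02, so levels are compared only within the ND8037 arrays or within the others. The 9 measured green tissue markers had a summed linear signal of 23513 to 30050 in the NC2373 mutants and 7906 to 12603 in the null. The sum was 12368 to 22675 in the ND8037 mutants and 6675 to 9456 in the null, and 1631 to 3580 in gs1;2 and 3024 to 7771 in wild type. By limma, 6 of these 9 markers rose in the mean of both lines, 7 in NC2373 and 5 in ND8037, and none fell. In gs1;2 none was called, the sums overlapped with wild type, and the median difference was -0.30, against 0.02 over all probe sets. Of the 9, 2 were also higher in NC2373 null than in wild type. CAB2R, with the highest mean signal, weighs most in the green marker sum. It was not called in the mean (adjusted p = 0.093 in limma), NC2373 (0.254) or ND8037 (0.3247). RBCS-A read below the array median on all 17 arrays, PORA on 8 and LFNR1 on 4. Of 7 root markers, OsSCR1 read below the array median on all 17 arrays and the other 6 above it on all 17. The summed root marker signal was 7574 to 9896 in the ND8037 mutants against 11055 to 11350 in the null, 11852 to 13575 in gs1;2 against 14925 to 19794 in wild type, and overlapped in NC2373, at 10524 to 11535 against 10714 to 14547. Among the root markers Lsi2, a silicon transporter, fell in the gs1;1 mean, by 0.52 (adjusted p = 0.04202), and in gs1;2, by 0.81 (adjusted p = 0.04664). The other 6 were not called in either, and in the mean the 7 ran from -0.54 in OsCASP1 to 0.32 in OsSCR1. Their median difference was -0.03 in the mean, as over all probe sets, and -0.28 in gs1;2, against 0.02. Lsi1, with the highest signal, weighs most in the summed signal. The part of these markers and of RNA quality in the results that follow was not tested. In whole roots, fewer cells of a type and less RNA per cell cannot be told apart.

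The first comparison was the loss of OsGS1;1, taken as the mean of the effects in both lines. ARF genes made up most of the rises: ARF4, ARF23, ARF9, ARF10 and ARF2 rose by 0.28 to 0.49, together with the Aux/IAA gene IAA25 and the conjugating enzyme gene GH3.8. IAA30, IAA13, IAA12 and ARF22 fell by 0.22 to 0.60. In all, 11 of 52 genes passed, or 21.2%, where 14% of all probe sets did. Of these, 7 were higher, beside 6.88% of all probe sets, and 4 lower, beside 7.1%. Bright probe sets were called more often: among those above the median signal 27.9% passed, and there the families gave 11 of 44 genes, or 25%. The share called is therefore near that of other probe sets of similar brightness. The median difference was 0.05 over the ARF genes, -0.02 over the Aux/IAA genes and -0.01 over the GH3 genes, and -0.03 over all probe sets. Without NC2373 mutant sample 117 the count was 6.

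**Figure D1:**
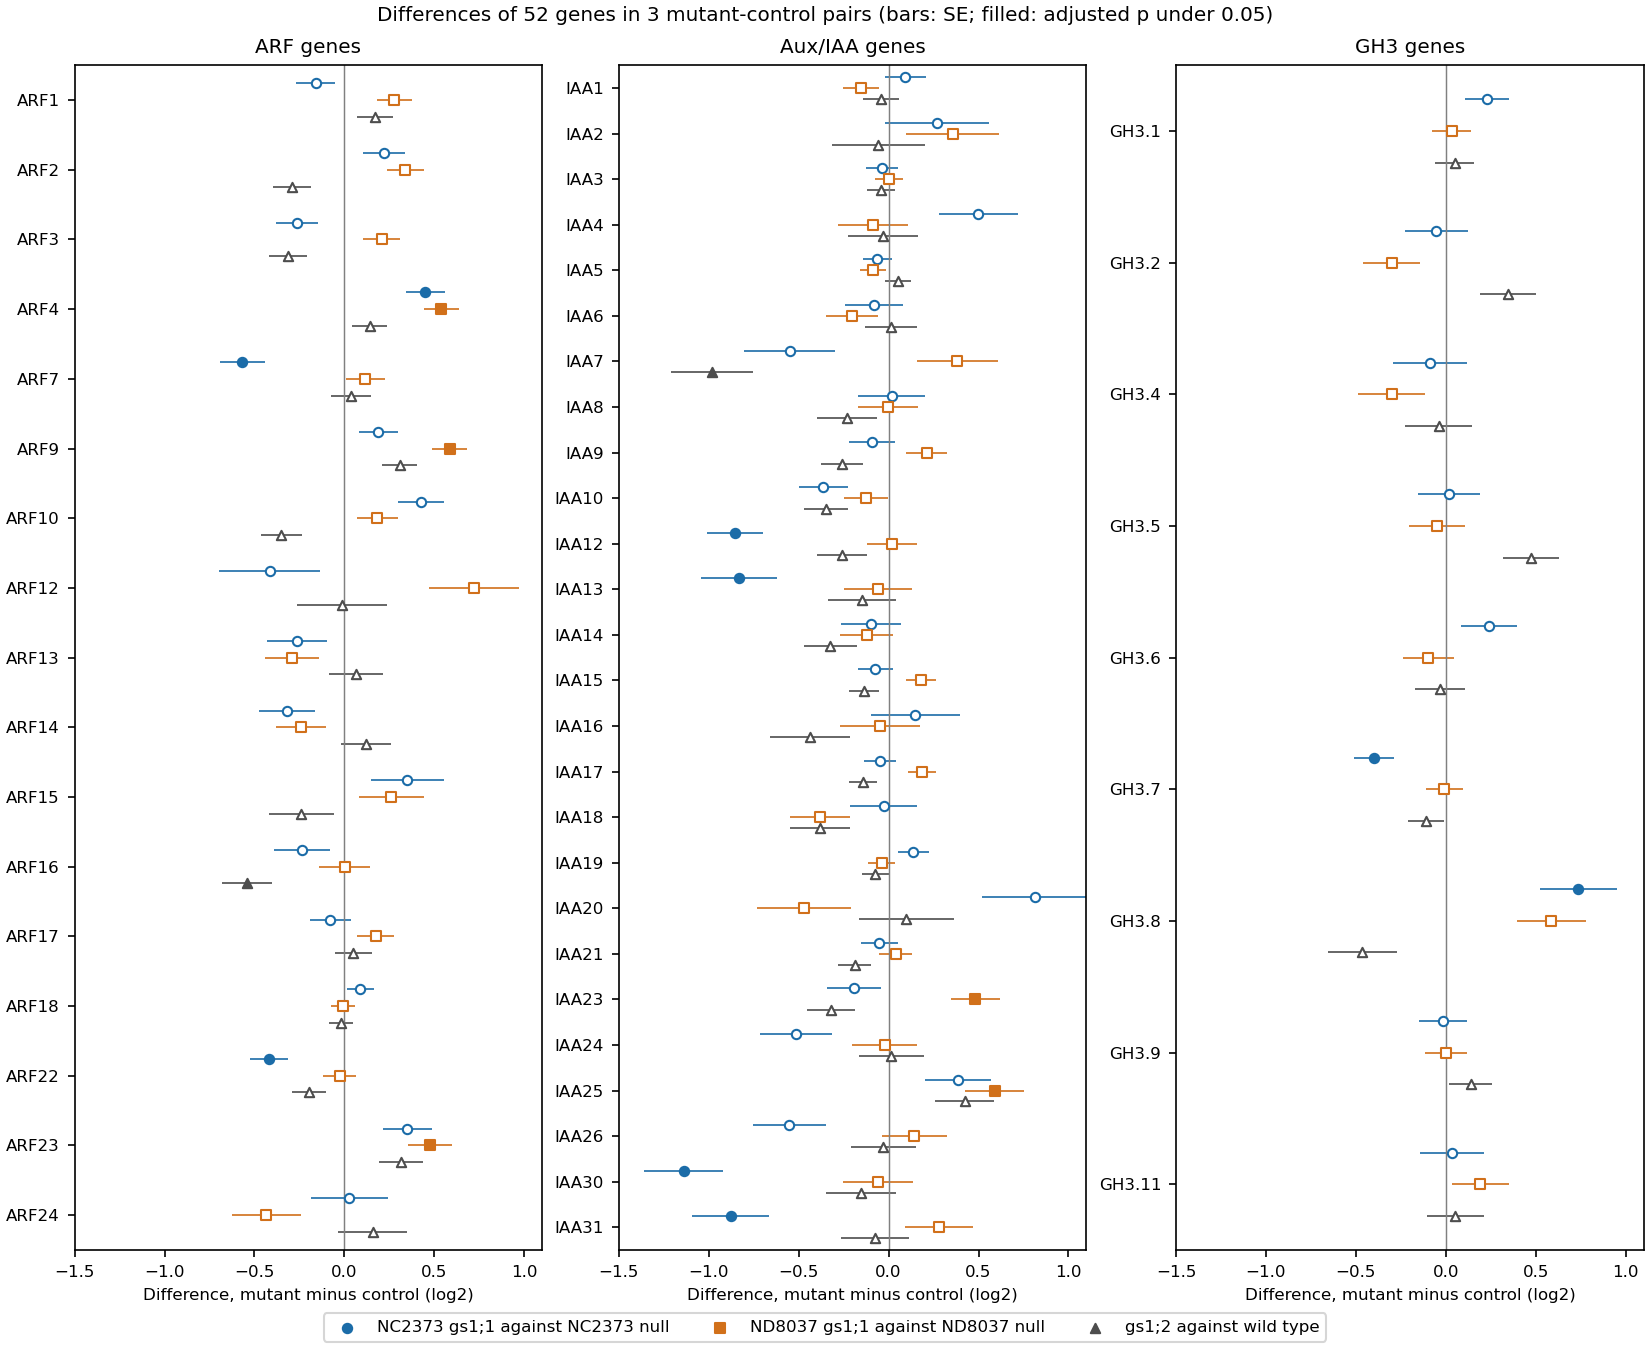
Difference of each of the 52 genes, mutant minus control (log2 RMA signal, horizontal axis), in NC2373 gs1;1, ND8037 gs1;1 and gs1;2, with 1 panel per family; bars show the SE and filled symbols an adjusted p under 0.05. The filled symbols of NC2373 lie mostly to the left of 0 (7 of 9) and all 5 of ND8037 lie to the right, while gs1;2 has 2, ARF16 and IAA7, both to the left.

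Of the 5 ARF genes that rose, ARF4, ARF9 and ARF23 also passed in a single line. ARF4 (LOC4326957), whose rice protein is known to affect grain size, read 10.91 and 10.88 in the NC2373 mutants against 10.34, 10.52 and 10.47 in the null. In ND8037 it read 10.06, 9.83 and 9.84 in the mutants against 9.48, 9.17 and 9.47. All mutant samples lay above every null sample of their line. ARF4 was the only one of the 52 genes called in both lines, with a difference of 0.45 in NC2373 (SE 0.109, adjusted p = 0.02169 in limma) and 0.54 in ND8037 (SE 0.0977, adjusted p = 0.0058), and 0.49 for the mean (SE 0.0733, adjusted p = 0.0006072). The NC2373 call ended without sample 117 (adjusted p = 0.1175), 118 (0.1026) or null sample 152 (0.08515), while the mean and ND8037 calls held without any 1 array. A second probe set of ARF4 rose by 0.48 in NC2373 and 0.77 in ND8037.

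ARF9 (LOC4335934) read 9.58, 9.73 and 9.73 in the ND8037 mutants against 9.15, 8.97 and 9.15 in the null. In NC2373 it read 10.29 and 10.23 against 10.16, 9.97 and 10.09. The groups did not overlap in either line, but their distance was larger in ND8037. The difference was 0.59 in ND8037 (SE 0.098, adjusted p = 0.004008 in limma), 0.19 in NC2373 (adjusted p = 0.3635) and 0.39 for the mean (SE 0.0735, adjusted p = 0.002946). ARF23 (LOC4350610), the gene also known as OsARF1, read 9.49, 9.23 and 9.25 in the ND8037 mutants against 8.96, 8.64 and 8.95, and 10.19 and 10.07 in the NC2373 mutants against 9.60, 9.96 and 9.80. Again no mutant sample reached down to its null. ARF23 rose by 0.47 in ND8037 (SE 0.122, adjusted p = 0.02677) and by 0.41 in the mean (SE 0.0916, adjusted p = 0.007665), with 0.35 in NC2373 not passing (adjusted p = 0.1462). Its ND8037 call ended without sample 123 (adjusted p = 0.1156) or null sample 157 (0.1118).

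The remaining pair passed only as the mean of the lines. ARF10 (LOC4336419), whose Arabidopsis namesake is a target of the microRNA miR160, read 7.64 and 7.38 in the NC2373 mutants against 7.08, 7.08 and 7.07 in the null. In ND8037 it read 7.11, 6.88 and 6.69 against 6.63, 6.86 and 6.64. The NC2373 groups were apart and the ND8037 groups overlapped. The mean difference of ARF10 was 0.30 (SE 0.085, adjusted p = 0.02657 in limma), and it no longer passed without sample 117 (adjusted p = 0.1389), 123 (0.06233) or ND8037 null sample 156 (0.05654) or 158 (0.05824). ARF2 (LOC4325895), listed as OsETTIN2 after an Arabidopsis regulator of floral organ patterning, read 7.15, 6.73 and 6.76 in the ND8037 mutants against 6.54, 6.54 and 6.56, and 7.68 and 7.57 in the NC2373 mutants against 7.24, 7.45 and 7.53. Both lines had separate groups, with ND8037 sample 123 the highest of its line. The mean difference was 0.28 (SE 0.0785, adjusted p = 0.0274), lost without sample 117 (adjusted p = 0.111) or NC2373 null sample 152 (0.06172), and also when the gs1;2 and wild-type arrays were not fitted (0.0691). A second probe set of ARF2 gave 0.22 in the mean and did not pass (adjusted p = 0.06141).

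**Figure D2:**
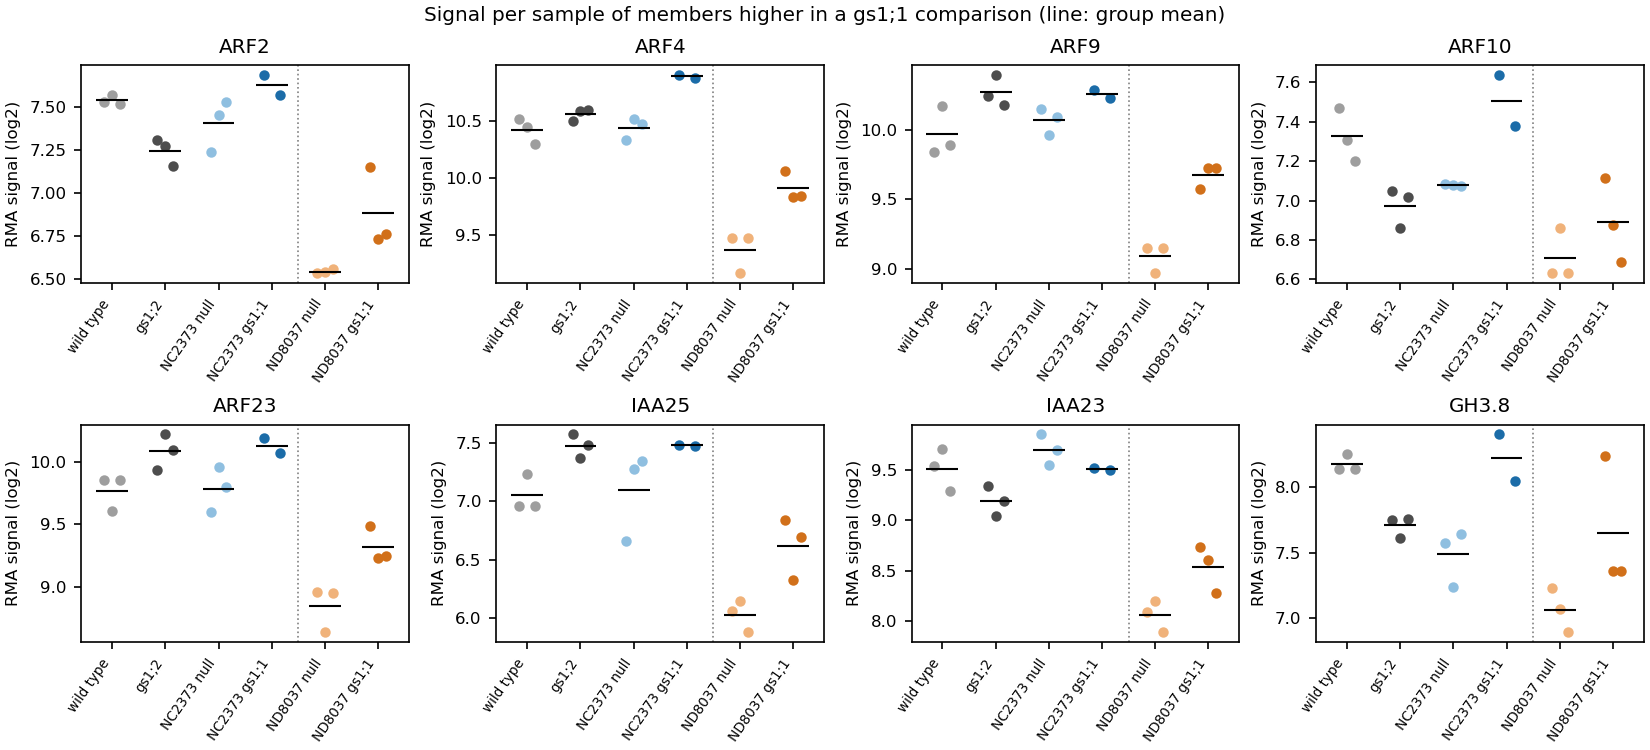
RMA signal (log2, vertical axis, own scale in each panel) in every sample of the 8 genes that rose in a gs1;1 comparison, with the group mean as a line; the dotted line separates the ND8037 arrays, whose levels are not compared with the others. ARF2, ARF4, ARF9, ARF23, IAA25 and GH3.8 show no overlap between mutant and null in either line, and GH3.8 has 1 high ND8037 mutant sample, at 8.24.

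Among the Aux/IAA genes, IAA25 (LOC4344471) rose. It read 7.48 and 7.47 in the NC2373 mutants against 6.66, 7.27 and 7.34 in the null, and 6.84, 6.32 and 6.69 in the ND8037 mutants against 6.06, 6.14 and 5.88. The groups were apart in both lines, and in NC2373 null 1 sample, 152, was far lower than the others. The mean difference was 0.49 (SE 0.123, adjusted p = 0.01542 in limma), with 0.59 in ND8037 (SE 0.164, adjusted p = 0.037) and 0.38 in NC2373 (adjusted p = 0.246). The mean call ended without sample 117 (adjusted p = 0.05474), and the ND8037 call in 5 of 17 omissions, without sample 123 (0.1496), 125 (0.1028) or null sample 156 (0.06795), 157 (0.06664) or 158 (0.1228).

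GH3.8 (LOC4343785), which encodes an enzyme that conjugates indole-3-acetic acid to amino acids, had the largest rise of the 52 genes in the mean of the lines. It read 8.40 and 8.05 in the NC2373 mutants against 7.57, 7.24 and 7.64 in the null. In ND8037 it read 8.24, 7.36 and 7.36 against 7.23, 7.07 and 6.90. Every mutant sample was above its null, and ND8037 sample 123 was far above the other two. The mean difference was 0.66 (SE 0.143, adjusted p = 0.006453 in limma), and this call held without any 1 array. In NC2373 alone GH3.8 rose by 0.74 (SE 0.214, adjusted p = 0.0488), a call that 14 of 17 omissions of 1 array ended, with adjusted p from 0.05436 to 0.2979, the highest of them without sample 117. In ND8037 the 0.59 did not pass (adjusted p = 0.06869).

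The second question was what each line showed on its own. In NC2373 9 of 52 genes passed, or 17.3%, beside 7.67% of all probe sets and 17.2% of those above the median signal. ARF4 and GH3.8 were higher, as were 4.08% of all probe sets, and 7 genes were lower, as were 3.59%. In ND8037 5 genes passed, or 9.6%, beside 9.09% of all probe sets and 20% of those above the median signal. All 5 were higher, as were 4.41% of all probe sets, while 4.68% of all probe sets and 0 of the 52 genes were lower, by the probe set used for each. Another probe set of IAA4 (LOC4327919) fell in ND8037, by 0.31 (adjusted p = 0.0398 in limma). The one used for IAA4 gave -0.09 and the remaining one -0.11, neither passing. By limma, 12 of the 52 genes had an unadjusted p under 0.05 there. Among the 44 bright genes 10 passed in NC2373 and 7 in ND8037, or 22.7% and 15.9%, so neither share stood far from that of bright probe sets. Samples did not overlap for 11 genes higher and 17 lower in NC2373, where 16% and 20.1% of all probe sets were so placed, and for 14 higher and 7 lower in ND8037, where it was 12% and 16.5%. The counts of higher genes in both lines and of lower genes in NC2373 exceed those shares, which are not matched for brightness. The NC2373 count was 1 without sample 117, 0 without 118 and 2 without null sample 152. The ND8037 count was 2 without sample 123 or null sample 157 and 3 without null sample 158.

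The 7 genes that fell in NC2373 were 4 Aux/IAA genes, IAA30, IAA31, IAA12 and IAA13, with ARF7, ARF22 and GH3.7. IAA30 (LOC4352721) read 10.30 and 10.29 in the NC2373 mutants against 11.78, 11.07 and 11.45 in the null. In ND8037 it read 9.93, 10.17 and 10.22 against 10.08, 10.29 and 10.12. Its NC2373 groups were far apart and its ND8037 groups overlapped. The NC2373 difference of -1.14 (SE 0.219, adjusted p = 0.006661 in limma) was the only one of the 52 genes to exceed 1 in size in any of the 3 mutant and control pairs. In ND8037 it was -0.06 (adjusted p = 0.893). Its NC2373 call ended narrowly without sample 117 (adjusted p = 0.05055) or 118 (0.05152), while the mean of the lines, -0.60 (SE 0.147, adjusted p = 0.01322), passed without any 1 array.

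IAA31 (LOC4352722), the neighbour of IAA30 on chromosome 12 with no protein-coding gene between them in the RefSeq assembly ASM3414082v1, read 10.90 and 10.62 in the NC2373 mutants against 11.87, 11.33 and 11.72. In ND8037 it read 10.23, 10.50 and 10.57 against 10.21, 10.12 and 10.13. The NC2373 mutants were below their null and the ND8037 mutants above theirs. IAA31 fell by 0.88 in NC2373 (SE 0.212, adjusted p = 0.0212 in limma), lost without sample 117 (adjusted p = 0.06329), 118 (0.1749) or null sample 152 (0.08438) or 154 (0.05227), and its 0.28 in ND8037 did not pass (adjusted p = 0.3968). A second probe set of IAA31 gave -0.08 in NC2373 and did not pass (adjusted p = 0.807). Its mean over all samples, 4.48, was under the median of every array.

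IAA12 (LOC4333512) read 10.01 and 9.76 in the NC2373 mutants against 10.90, 10.59 and 10.73 in the null. In ND8037 it read 9.05, 9.49 and 9.38 against 9.20, 9.41 and 9.25. The first pair of groups was well separated and the second intermixed. The differences were -0.85 in NC2373 (SE 0.155, adjusted p = 0.005177 in limma), 0.02 in ND8037 (adjusted p = 0.9517) and -0.42 for the mean (SE 0.104, adjusted p = 0.01479). Leaving out sample 118 ended both calls (adjusted p = 0.06309 in NC2373 and 0.08013 for the mean). IAA13 (LOC4334069), whose rice protein is known from a mutant with fewer lateral roots, read 11.91 and 11.81 in the NC2373 mutants against 12.92, 12.33 and 12.83, and 11.32, 11.72 and 11.73 in the ND8037 mutants against 11.52, 11.72 and 11.69. Only the NC2373 groups were apart. It fell by 0.83 in NC2373 (SE 0.21, adjusted p = 0.02605), lost without sample 117 (adjusted p = 0.1027), 118 (0.1534) or null sample 152 (0.09876) or 154 (0.06969). Its mean difference of -0.45 (SE 0.141, adjusted p = 0.04756) no longer passed in 12 of 17 omissions, with adjusted p from 0.05009 to 0.1392.

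ARF7 (LOC4329672) read 9.33 and 9.26 in the NC2373 mutants against 10.06, 9.74 and 9.77, and 8.91, 8.99 and 9.06 in the ND8037 mutants against 8.93, 8.81 and 8.86. It was lower in every NC2373 mutant than in the null, with overlap in ND8037. It fell by 0.57 in NC2373 (SE 0.124, adjusted p = 0.01299 in limma), lost without sample 117 (adjusted p = 0.06574), 118 (0.09595) or null sample 152 (0.05477). ARF22 (LOC4348918), a known target of miR160 in rice, read 9.39 and 9.34 in the NC2373 mutants against 9.94, 9.66 and 9.76, and 8.68, 8.69 and 8.70 in the ND8037 mutants against 8.65, 8.83 and 8.67. The ND8037 mutants lay inside the range of their null. ARF22 fell by 0.42 in NC2373 (SE 0.105, adjusted p = 0.02461), lost without sample 117 (adjusted p = 0.09997), 118 (0.1446) or null sample 152 (0.09834). Its mean difference of -0.22 (SE 0.0705, adjusted p = 0.04663) was lost in 13 of 17 omissions, with adjusted p from 0.05119 to 0.1348.

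GH3.7 (LOC4341111), another conjugating enzyme gene, read 7.55 and 7.45 in the NC2373 mutants against 8.09, 7.85 and 7.76, and 6.98, 7.03 and 6.97 in the ND8037 mutants against 6.97, 7.08 and 6.95. The mutants were lower in the first line alone. It fell by 0.40 in NC2373 (SE 0.113, adjusted p = 0.04432 in limma), a call that ended in 10 of 17 omissions, with adjusted p from 0.05308 to 0.246. Its other probe sets gave -0.04 and -0.21 there and did not pass. Their means over all samples, 2.44 and 4.20, were under the median of every array.

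**Figure D3:**
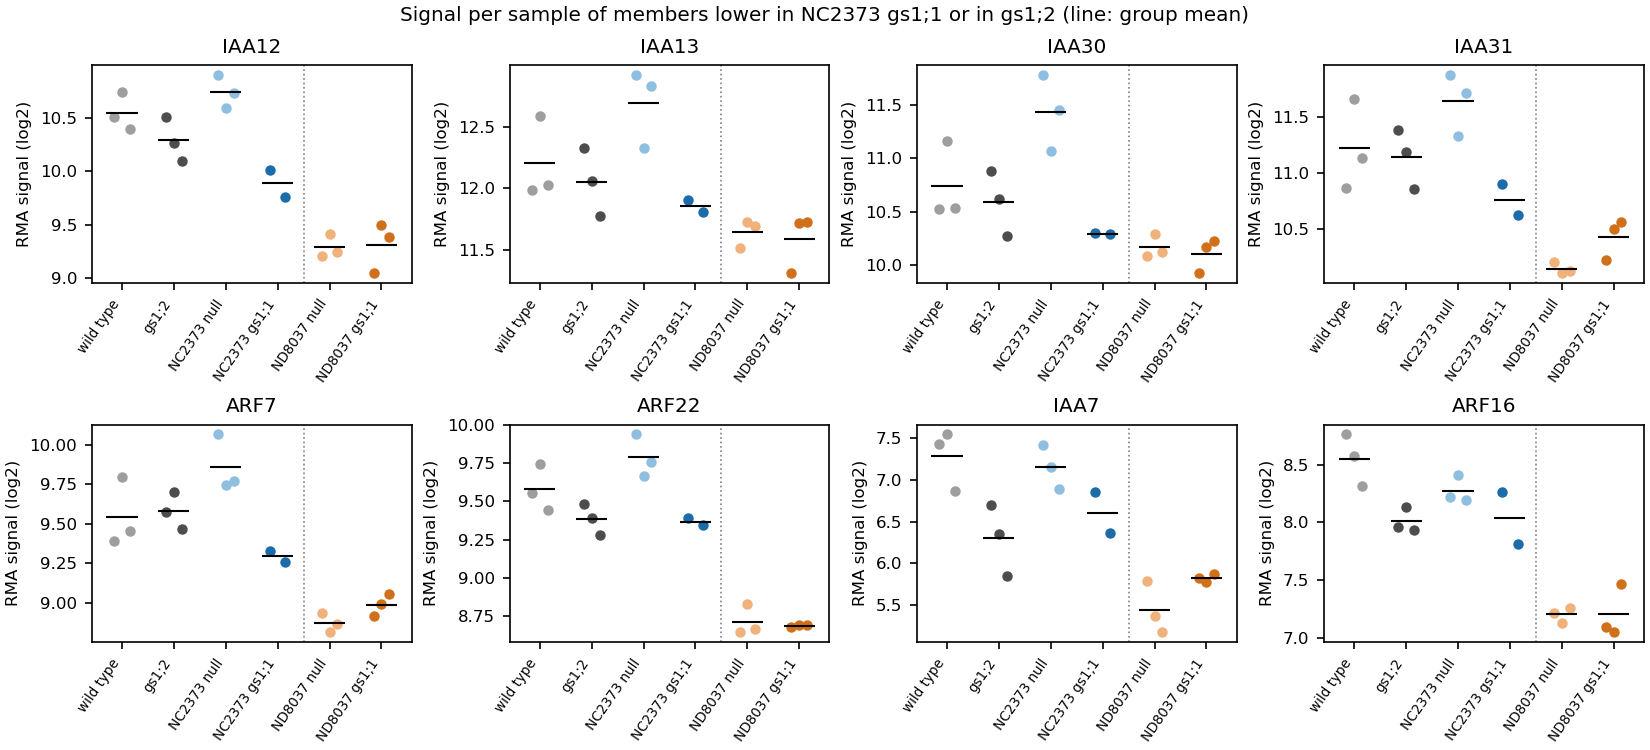
RMA signal (log2, vertical axis, own scale in each panel) in every sample of 8 genes that fell in NC2373 gs1;1 or in gs1;2, with the group mean as a line; the dotted line separates the ND8037 arrays. In IAA12, IAA13, IAA30, IAA31, ARF7 and ARF22 the NC2373 null samples lie above both NC2373 mutant samples, and in IAA7 and ARF16 the wild-type samples lie above the gs1;2 samples, whose nearest pairs are 6.87 and 6.70 in IAA7 and 8.31 and 8.13 in ARF16.

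The 5 genes that rose in ND8037 were ARF4, ARF9, ARF23, IAA25 and IAA23. IAA23 (LOC4341432), whose rice protein is known for a role in the quiescent centre of the root, read 8.73, 8.61 and 8.28 in the ND8037 mutants against 8.09, 8.20 and 7.89 in the null. In NC2373 it read 9.52 and 9.51 against 9.86, 9.55 and 9.70. The mutants were higher than the null in ND8037 and lower in NC2373. IAA23 rose by 0.48 in ND8037 (SE 0.135, adjusted p = 0.0381 in limma), while -0.19 in NC2373 did not pass (adjusted p = 0.5444). The ND8037 call ended without sample 123 (adjusted p = 0.1552), 124 (0.09609) or null sample 156 (0.06802), 157 (0.0553) or 158 (0.1361). Of its other probe sets in ND8037, 1 rose by 0.49 and 1 gave 0.12 and did not pass. The latter had a mean of 3.37 over all samples, under the median of every array.

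The lines were compared directly through the difference of their effects. By limma, none of the 52 genes passed, where 0.00874% of all probe sets did, so no gene above was shown to differ between the lines. At an unadjusted p under 0.05 there were 15 of 52 genes, where 16% of all probe sets and 22.8% of those above the median signal were so. The 7 genes that fell in NC2373 had differences of -0.06 to 0.28 in ND8037 and line differences of -1.16 to -0.39, with a smallest adjusted p of 0.137. The difference was -0.87 for IAA12 (SE 0.208, adjusted p = 0.137), -1.08 for IAA30 (adjusted p = 0.1383) and -1.16 for IAA31 (SE 0.285, adjusted p = 0.1375). The 5 genes that rose in ND8037 had differences of -0.19 to 0.45 in NC2373. The labels name no array sets, but the ND8037 arrays differed from the NC2373 arrays in median signal and in 3' minus 5' actin signal. The line and this difference between arrays cannot be told apart. The NC2373 null was also set against wild type, whose arrays had similar medians and actin signal. None of the 52 genes passed in limma (11 at an unadjusted p under 0.05), and 0.914% of all probe sets did. The 7 genes gave -0.06 to 0.69 there, the highest in IAA30 (adjusted p = 0.1175).

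**Figure D4:**
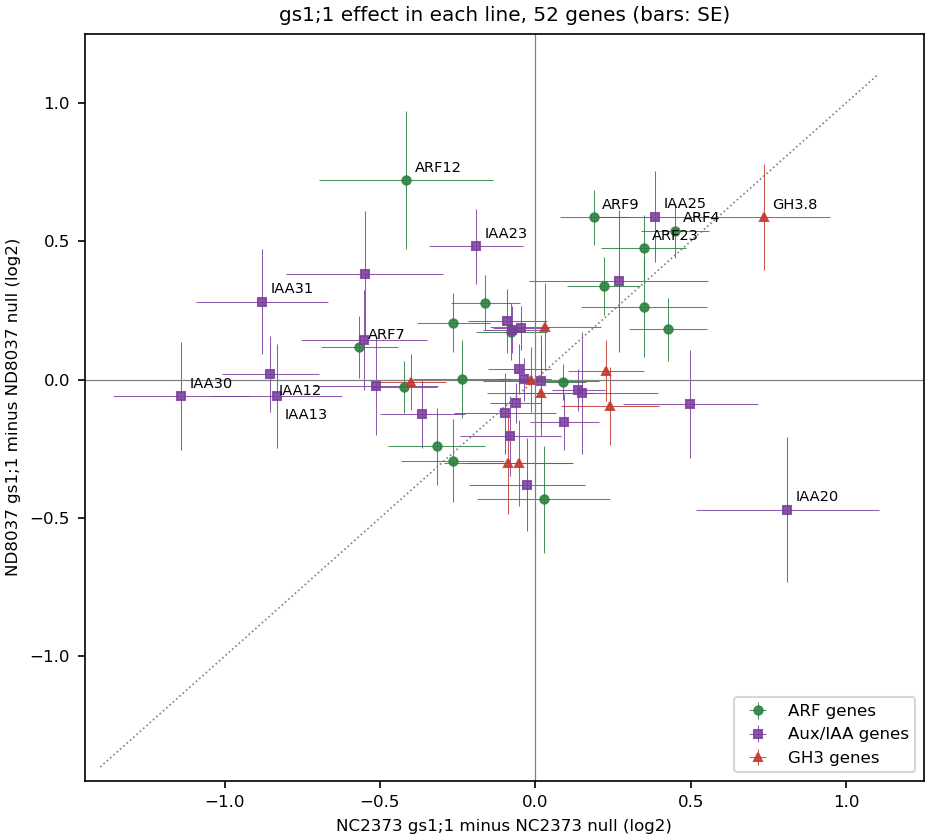
Difference between mutant and null in NC2373 (horizontal axis) and ND8037 (vertical axis), log2 RMA signal, for the 52 genes, coloured by family, with SE bars and the line of equal values dotted. ARF4, ARF23, IAA25 and GH3.8 lie above 0 on both axes, and IAA30, IAA12 and IAA13 lie left of 0 on the horizontal axis and within 0.06 of 0 on the vertical axis.

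The third comparison was the loss of OsGS1;2. Only IAA7 and ARF16 passed, both lower, and no GH3 gene did. That is 2 of 52 genes, or 3.8%, beside 4.04% of all probe sets and 9.13% of those above the median signal, where the families gave 2 of 44. Of all probe sets 2.37% were called lower and 1.67% higher. By limma, 0 of 9 GH3 genes passed, and 3 had an unadjusted p under 0.05. Samples did not overlap for 4 genes higher (ARF9, ARF23, IAA25 and GH3.5) and 8 lower (ARF2, ARF10, ARF16, IAA7, IAA10, IAA14, IAA15 and GH3.8), where 13.2% and 11.7% of all probe sets were so placed. The count of 2 fell to 0 without gs1;2 sample 355 or 356 or wild-type sample 627, to 1 without wild-type sample 628, NC2373 null sample 154 or any 1 ND8037 null sample, and was 4 without wild-type sample 629.

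IAA7 (LOC4328796) read 6.70, 6.35 and 5.85 in gs1;2 against 7.43, 7.55 and 6.87 in wild type. All mutants were below all wild-type samples, and samples 356 and 629 were the lowest of their groups. It fell by 0.98 (SE 0.227, adjusted p = 0.02577 in limma), lost without sample 355 (adjusted p = 0.07068), 356 (0.1421), 627 (0.08663) or 628 (0.1146). ARF16 (LOC9270361), known in rice for a role in phosphate starvation, read 7.96, 8.13 and 7.94 in gs1;2 against 8.76, 8.58 and 8.31 in wild type. The mutants were again the lower group. ARF16 fell by 0.54 (SE 0.14, adjusted p = 0.04337), a call that ended in 9 of 17 omissions, with adjusted p from 0.05287 to 0.175. In the gs1;1 mean ARF16 gave -0.12 (adjusted p = 0.5239), and IAA7 gave -0.55 in NC2373 (adjusted p = 0.2295) and 0.38 in ND8037 (adjusted p = 0.3282).

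Across the Aux/IAA family, 21 of 26 genes lay below 0 in gs1;2 and the median difference was -0.14, against 0.02 over all probe sets, while the ARF median was 0.03 and the GH3 median 0.05. Of the 26, 7 had an unadjusted p under 0.05, of which 1 passed after adjustment. In ND8037 12 of 17 ARF genes lay above 0, with a median of 0.18 against -0.04 over all probe sets. In NC2373 8 of 17 did, with a median of -0.08 against -0.02. Among probe sets above the median signal, the median was -0.02 in gs1;2, -0.01 in ND8037 and -0.02 in NC2373. The share of all probe sets on each side of 0 was not determined, so these counts have no reference.

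No gene was called in both the gs1;1 mean and gs1;2. Of the 7 genes that rose in the gs1;1 mean, 4 also had positive differences in gs1;2, none of them passing: IAA25 at 0.42 (adjusted p = 0.1679), ARF23 at 0.32 (adjusted p = 0.1664), ARF9 at 0.31 (adjusted p = 0.09466) and ARF4 at 0.14 (adjusted p = 0.4699). The other 3 had negative ones, also without passing, with GH3.8 at -0.46 (adjusted p = 0.195), ARF10 at -0.35 (adjusted p = 0.09823) and ARF2 at -0.29 (adjusted p = 0.1366). A second probe set of ARF2 did pass in gs1;2, at -0.41 (adjusted p = 0.02959). GH3.8 read 7.75, 7.61 and 7.76 in gs1;2 against 8.13, 8.25 and 8.13 in wild type. ARF10 read 7.05, 6.86 and 7.02 against 7.47, 7.31 and 7.20. Every gs1;2 sample was below wild type in both genes. Their gs1;2 effect was tested against the NC2373 effect, which uses other control samples, on arrays of similar median signal. This difference passed for 2 genes, where 4% of all probe sets passed: it was 1.20 for GH3.8 (SE 0.287, adjusted p = 0.03158 in limma) and 0.78 for ARF10 (SE 0.17, adjusted p = 0.02062). None of the 26 Aux/IAA genes passed, and 4 had an unadjusted p under 0.05. The NC2373 null itself differed from wild type by -0.68 in GH3.8 (adjusted p = 0.1119). The count of 2 was 0 without sample 117 or 355, 1 without 354, 356 or 627, and 4 without 628. The ARF10 call was lost without sample 117 (adjusted p = 0.0998) or 355 (0.05078). That of GH3.8 was lost without NC2373 null sample 153 (0.06972), sample 117 (0.13), 627 (0.05495), 628 (0.05214), 354 (0.05511), 355 (0.06797) or 356 (0.05767).

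By the probe set used for each, the other 35 genes were called in none of the 3 pairs or the mean. They were 9 ARF genes (ARF1, ARF3, ARF12, ARF13, ARF14, ARF15, ARF17, ARF18 and ARF24), 19 Aux/IAA genes (IAA1 to IAA6, IAA8 to IAA10, IAA14 to IAA21, IAA24 and IAA26) and 7 GH3 genes (GH3.1, GH3.2, GH3.4, GH3.5, GH3.6, GH3.9 and GH3.11). Their NC2373 differences spanned -0.42 to 0.35 in the ARF genes, -0.55 to 0.81 in the Aux/IAA genes and -0.09 to 0.24 in the GH3 genes. In ND8037 the ranges were -0.43 to 0.72, -0.47 to 0.36 and -0.30 to 0.19, and in gs1;2 they were -0.31 to 0.17, -0.44 to 0.10 and -0.04 to 0.47. ARF12 (LOC4337363), known in rice to affect root elongation, gave -0.42 in NC2373 and 0.72 in ND8037 (SE 0.25, adjusted p = 0.08523), and IAA20 (LOC4340245) gave 0.81 in NC2373 (adjusted p = 0.1129) and -0.47 in ND8037. The line difference did not pass for either, at -1.14 for ARF12 (adjusted p = 0.1737) and 1.28 for IAA20 (SE 0.394, adjusted p = 0.1545). GH3.5 (LOC4339756), also known as OsJAR1 and encoding a jasmonate-conjugating enzyme, gave 0.47 in gs1;2 (adjusted p = 0.1053).

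Auxin genes outside the 3 families gave a wider context. Lists for synthesis, co-repressors, transport, conjugate breakdown and oxidation, small auxin-up RNAs and root formation held 28 measured genes, matched by name alone. In the gs1;1 mean 1 rose and 5 fell, beside 14% of all probe sets called. In NC2373 2 rose and 2 fell (7.67% of all probe sets called), in ND8037 2 rose and 3 fell (9.09%), and in gs1;2 2 fell (4.04%). Their median difference was 0.06 in the mean, where that of all probe sets was -0.03, 0.14 in NC2373 (-0.02), -0.10 in ND8037 (-0.04) and -0.02 in gs1;2 (0.02). The breakdown and oxidation list supplied 4 of the 5 falls, out of 8 genes: ILL3, ILL6 and ILL1, members of a family of amidohydrolases that release auxin from conjugates, and DAO, an auxin dioxygenase. ILL3 read 7.24 and 5.37 in the NC2373 mutants against 10.77, 11.07 and 11.25, and 5.70, 7.12 and 8.07 in the ND8037 mutants against 9.91, 10.81 and 9.76. All mutants lay well below their nulls, with a wide spread among them. ILL3 fell by 3.96 in the mean (SE 0.479, adjusted p = 0.0001631 in limma), DAO by 0.54 (adjusted p = 0.003285), ILL6 by 0.38 (adjusted p = 0.01354) and ILL1 by 0.30 (adjusted p = 0.01813). Without sample 117 the calls of ILL6 (adjusted p = 0.08939) and ILL1 (0.1025) ended.

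Of 9 genes on the transport list, OsPIN4 and OsPIN5a, of the PIN auxin efflux carriers, passed in the gs1;1 mean, at -1.18 (adjusted p = 0.009624 in limma) and 0.53 (adjusted p = 0.006896). OsPIN4 read 5.93, 6.19 and 5.66 in the ND8037 mutants against 7.92, 8.00 and 7.86, and 5.83 and 7.18 in the NC2373 mutants against 6.58, 6.93 and 7.05. The groups were far apart in ND8037 and overlapped in NC2373, and the mean call of OsPIN4 ended without sample 117 (adjusted p = 0.07039). OsPIN4 fell by 2.00 in ND8037 (SE 0.364, adjusted p = 0.005813), and OsPIN2, known for root gravitropism, rose by 1.22 there (SE 0.257, adjusted p = 0.01078). OsPIN5a read 5.61 and 6.08 in the NC2373 mutants against 5.14, 5.26 and 4.91 in the null. In ND8037 it read 4.12, 4.08 and 4.05 against 4.00, 3.81 and 3.51. OsPIN5a was called in NC2373 but not in ND8037, and it read below the array median on 14 of 17 arrays. The LAX1 on this list is by its name likely the panicle-branching regulator and not a transporter, and it was not called.

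In gs1;2 the falls were FIB, a tryptophan aminotransferase of auxin synthesis, and ASP1 (LOC4349962), put on the co-repressor list by name alone. This ASP1 lies on chromosome 11 and is also listed as OsAsp1, so it may not be the TOPLESS-related co-repressor of that name. FIB read 7.61, 7.50 and 7.29 in gs1;2 against 8.43, 8.21 and 8.06 in wild type. The groups did not overlap, and FIB fell by 0.76 (SE 0.173, adjusted p = 0.02369 in limma), a call lost without sample 627 (adjusted p = 0.089), 628 (0.07307), 355 (0.06641) or 356 (0.1256). ASP1 fell by 0.39 (SE 0.105, adjusted p = 0.04934) at a signal below the array median on all 17 arrays, and 17 of 21 alternatives ended that call, with adjusted p up to 0.2122. The list of receptors and co-repressors held 3 measured genes, this ASP1 and the co-repressor genes OsTPR2 and TPR3. OsTPR2 rose by 0.39 in NC2373 (SE 0.103, adjusted p = 0.03083 in limma), lost without sample 117, 118, 152 or 153. TPR3 gave -0.09 in the gs1;1 mean. No TIR1 or AFB receptor gene was matched by name. ORC3 of the root formation list, a subunit of the origin recognition complex, rose by 0.91 in ND8037 (SE 0.254, adjusted p = 0.037, lost without sample 123, 125, 157 or 158, with adjusted p up to 0.1358). ORC3 read below the array median on 10 of 17 arrays, and at 3.72, 3.29 and 3.26 in the ND8037 null. SAUR39 was not called.

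**Figure D5:**
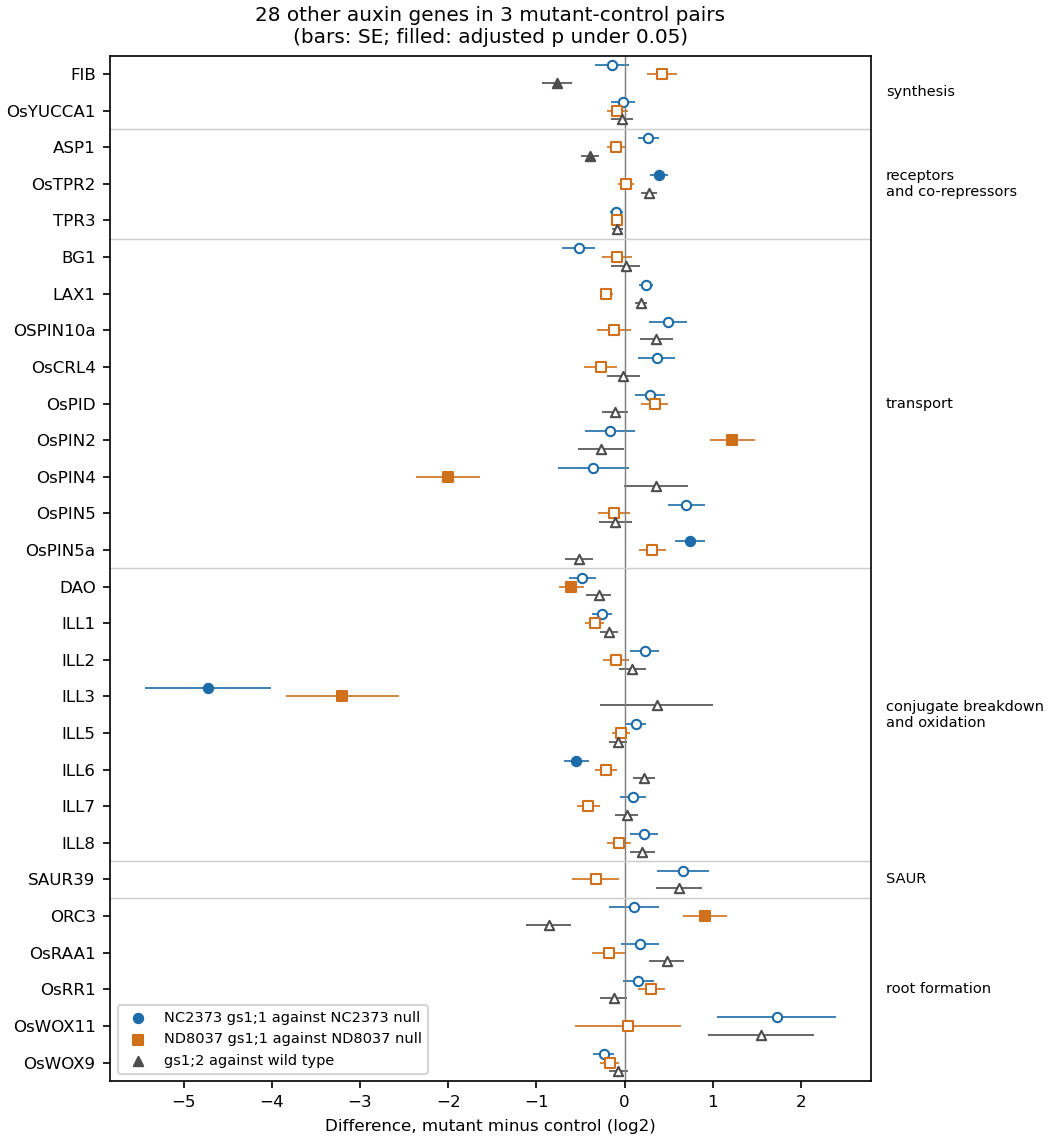
Difference of each of the 28 other auxin genes, mutant minus control (log2 RMA signal, horizontal axis), in NC2373 gs1;1, ND8037 gs1;1 and gs1;2, ordered by list; bars show the SE and filled symbols an adjusted p under 0.05. ILL3 stands furthest from 0 in both gs1;1 lines, and FIB and ASP1 are the filled symbols of gs1;2.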

How the data were processed

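Transcript levels were measured in 17 root samples on the Affymetrix rice array. The deposited values are log2 signals of whole probe sets. The authors obtained them by RMA, per the submitters' processing notes, with a version not given in the sources used here. The ND8037 arrays have other signal distributions than the rest, as separate normalization would give, which the labels do not state.

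Groups came from sample titles. The series' design text calls the samples biological replicates. Within-group correlations over all probe sets were 0.9917 to 0.9963, and no 2 files were identical. Of 57381 probe sets, 187 control and reporter probe sets were left out and 57194 tested, with no signal filter. Group means were fitted over all samples with limma 3.58.1 under R 4.3.3 (lmFit, eBayes), with residual degrees of freedom of 11 and a prior of 3.83. Tests of contrasts were two-sided and Benjamini-Hochberg adjusted. The number of arrays limits the precision. On data simulated for gs1;2 with normal noise, 92% of changes of 1 log2 unit and 99% of changes of 2 were recovered, with 8 false calls. Smaller changes, the size of most differences called in the families, were not simulated.

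Names came from GEO's platform annotation, joined by gene identifier to the RefSeq gene table of assembly GCF_034140825.1 ASM3414082v1: 22436 probe sets had 1 gene, all found there, 95 several and 34663 none listed. The members and lists were chosen with earlier results of these data known. Genes called in a mutant comparison or a difference of effects were named, with up to 3 called genes of each other list per mutant. The breakdown and oxidation list went past this limit, with 4 genes named in the gs1;1 mean. ARF12, IAA20 and GH3.5 were named after their values were seen. The planned ranking of mean levels within families was left out, since signals of different probe sets are not comparable, and sequence features were not analysed here. Alternatives were quantile normalization of all arrays, a fit of the compared groups alone, a robust variance prior with trend, a filter on signal, the mean of all probe sets of a gene, and leaving out each array. Their use on the other lists was chosen after seeing the data. Plots used Python 3.11.15 and matplotlib 3.10.9.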

Additional observations from a re-analysis of the deposited data

Results flagged for a closer look

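The effect of gs1;1 in NC2373 differed from the effect of gs1;2 for 2 of the 52 family genes and 4 of the 28 other auxin genes. This was by a limma contrast of the effects that is past the threshold. The family share, 3.8%, is near the 4% of all probe sets that passed. Among those above the median signal 3 of 44 family genes passed, or 6.8%, beside 9.01%. The difference, NC2373 gs1;1 effect minus gs1;2 effect on the log2 scale, was 0.78 for ARF10 (adjusted p = 0.02062) and 1.20 for GH3.8 (adjusted p = 0.03158). Among the other auxin genes it was -5.09 for ILL3 (adjusted p = 0.009874), -0.77 for ILL6 (adjusted p = 0.03468), 0.66 for ASP1 (adjusted p = 0.03031) and 1.26 for OsPIN5a (adjusted p = 0.009114). The ILL3 call was lost in 1 of 22 alternatives, without NC2373 gs1;1 sample 118 (-4.15, adjusted p = 0.05503). That of ILL6 was lost in 7 of 22 (adjusted p up to 0.1499, without sample 117), and that of ASP1 in 10 of 21 (up to 0.2279, with the mean of all its probe sets). ASP1, which was matched by name alone and may not be the co-repressor, read below the array median on all 17 arrays and OsPIN5a on 14. NC2373 null minus wild type, which enters these contrasts through both controls, was -0.25 for ARF10 (adjusted p = 0.3801), -0.68 for GH3.8 (0.1119), 2.13 for ILL3 (0.1382), 0.43 for ILL6 (0.1249), -0.34 for ASP1 (0.1513) and -0.30 for OsPIN5a (0.4575). None of these passed in limma, and the NC2373 null samples of ARF10 and GH3.8 all lay below the wild-type samples.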

How the results depend on the processing

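Of 29 differences called in the 3 families, 7 passed under all 22 alternatives (17 omissions of 1 array and 5 other settings), 22 lost the call in at least 1, and none changed sign. The 7 were ARF4 and ARF9 in the gs1;1 mean and in ND8037, and ARF23, GH3.8 and IAA30 in the mean. Fitting only the compared groups left 3 genes called in NC2373, 3 in ND8037 and 0 in gs1;2, and the counts over all probe sets fell there from 4385 to 2189, from 5197 to 3211 and from 2311 to 615, with 523 to 20 for the controls; for the line difference they rose from 5 to 102. Quantile normalization of all arrays left 1 gene in gs1;2, while the filter on signal kept 2 there. Each of these settings gave 1 gene for NC2373 null against wild type. Without 1 array, the counts of genes ran from 6 to 13 in the mean, 0 to 10 in NC2373, 2 to 6 in ND8037, 0 to 4 in gs1;2, 0 to 0 for the line difference, 0 to 4 for NC2373 against gs1;2 and 0 to 2 for the controls. Over all probe sets, omissions gave 5261 to 8264 in the mean, 1525 to 4886 in NC2373, 2073 to 5546 in ND8037 and 555 to 2818 in gs1;2. Of 21 differences called in the other auxin lists, 8 passed under all alternatives that could be run, 13 lost the call in at least 1 and none changed sign. An omission in a group of 2 assumes that the lone sample varies like the other groups. The cause of these shifts was not tested. Fits that leave arrays out also have fewer samples, and the 2 were not separated. No paired analysis was possible because the numbers in the sample titles are plant numbers that the groups do not share.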
